A study of Homo sapiens with 16 samples.

Results

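Oncogene-induced senescent fibroblasts depleted of JUN-family AP-1 subunits were compared with proliferating fibroblasts of the same line, to ask which open chromatin still separated the 2 states when the JUN proteins had been knocked down. The comparison rests on 4 of the 16 ATAC-seq libraries of the series, 2 of each group. Overlapping peaks of these 4 lists were merged on chromosomes 1 to 22 into 85204 regions. The depleted group, titled Sen-cJUN/JUND-KD and called JUN-KD here, was made of IMR-90 ER:Ras cells transfected with siRNA and kept for 6 days in 4-hydroxytamoxifen (4-OHT) at 100 nM. The treatment label of the JUN-KD libraries reads sicJUN/JUNB/JUND, so it names JUNB as well. The proliferating group, Pro, was made of the same cells with a control siRNA (siCtrl) and no 4-OHT. The cell type label of the Pro libraries nevertheless reads senescent fibroblast, and their state was taken from the titles. IMR-90 is an established line of human lung fibroblasts, and ER:Ras is an oncogenic Ras fused to an oestrogen receptor that 4-OHT switches on in every cell carrying it. Both groups therefore carry the transgene, and they differ in 4-OHT as well as in the siRNA. Paired-end libraries of Sen cells (4-OHT with siCtrl, n = 4) and of Sen-siFOXF1/2 cells (n = 2) took no part in defining the regions and served as readouts.

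AP-1 is a dimer of a JUN protein (JUN, JUNB or JUND) with another JUN or with a FOS or ATF partner, and it binds the palindrome TGANTCA. JUN proteins can pair with each other, whereas FOS proteins need a JUN partner, so that removing the JUN proteins disables most forms of AP-1. In senescent fibroblasts AP-1 is known as a factor that opens enhancers, many of them near genes of the senescence-associated secretory phenotype (SASP), the set of cytokines, chemokines and proteases that senescent cells secrete.

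The lists were similar in number of peaks and differed more in covered length. JUN-KD lists held 61426 and 58955 peaks on chromosomes 1 to 22, against 63860 and 64904 in Pro. The means were 60190 ± 1747 and 64382 ± 738 (SD, n = 2 each), a ratio of 0.935, and the covered lengths were 24.6 ± 1.54 Mb in JUN-KD and 30.4 ± 2.13 Mb in Pro (SD, n = 2 each). A two-sided exact permutation test gave p = 0.33 for both, which is the smallest p that 2 libraries against 2 can give, so no comparison of library values could pass 0.05. Background coverage, recovered from the peak values, was 3.08 and 2.01 in JUN-KD and 1.74 and 1.98 in Pro. A peak had to reach 4.87 and 5.97 times this background to be listed in JUN-KD, and 6.31 and 6.07 times in Pro. Whether the replicates of a group came from separate cultures is not given in the labels, and the spread between them may be technical.

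One technical difference moves with the groups. The peak names of JUN-KD and of Sen replicates 3 and 4 follow one prefix style, and those of Pro, of Sen replicates 1 and 2 and of siFOXF1/2 another. The style and the comparison of JUN-KD with Pro cannot be told apart, because each style holds 1 of the 2 groups. Sen libraries of both styles are therefore given beside the results, in most places as a range over all 4. The 4 strongest regions with a peak in both JUN-KD and no Pro library (called gained below), by the lower −log10 q of the JUN-KD peaks, were looked up after their values were seen, and the fifth differs from them. The strongest, at chr2:230045484-230045637 (build hg19, as are all regions below), stood at 141 and 169 times the background in JUN-KD. It had no peak in Pro and, of the Sen libraries, a peak in Sen 4 at 172. The other 3 of the 4 had peaks in both Sen 3 and Sen 4, and all 4 lacked a peak in Sen 1, Sen 2 and both siFOXF1/2 libraries. The fifth, at chr10:89804848-89805663, had a peak in all 4 Sen and both siFOXF1/2 libraries.

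JUN-depleted senescent cells and proliferating cells had many open regions in common, and each group also held regions that the other lacked. Of the 85204 regions, 41229 (48.4%) had a peak in all 4 libraries and are called shared. Regions with a peak in both JUN-KD and in neither Pro library, called gained, numbered 6943 (8.15%). Regions with a peak in neither JUN-KD and in both Pro libraries, called lost, numbered 9491 (11.1%). The gained regions made up 13.6% of all regions in both JUN-KD libraries, and the lost ones 16.8% of all regions in both Pro libraries. The other 27541 regions (32.3%) had any other combination. These are counts of presence and absence, without a test. Without JUN-KD replicate 2, 11603 regions were gained, and without Pro replicate 1, 14940 were lost. Leaving out a library raises such counts by construction, since fewer libraries must hold a peak.

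The balance of gained and lost regions turned with the treatment of depth. The level of a region is given here as its summit pileup, the number of fragments stacked at the summit, over the genome-wide background of that library. At shared regions the median level was 21.1 and 25.4 in JUN-KD, against 44.2 and 44.0 in Pro, and the difference in level had a median of -1.0 on the log2 scale (quartiles -1.33 and -0.59). Both JUN-KD libraries lay below both Pro libraries at 35430 shared regions (85.9%) and above both at 1582 (3.84%). When each library was scaled by its own median over shared regions, 17097 (41.5%) lay below and 13180 (32.0%) above. A difference found at most shared regions cannot be told apart from a lower share of fragments in open chromatin in the JUN-KD libraries. Their background was 1.37 times that of Pro on average. This mean rests on JUN-KD 1 (3.08), since JUN-KD 2 (2.01) was close to Pro 2 (1.98). For each gained or lost region a lower bound of the fold was computed, the lowest level where a peak was listed over the level that could have stayed unlisted elsewhere. With levels scaled by background, 1350 gained (1.58% of all regions) and 5093 lost regions (5.98%) reached a bound of 2-fold. Scaled on shared regions, 6585 gained (7.73%) and 527 lost regions (0.619%) did. With the detection floor taken at the genome-wide instead of the local background, 3384 gained (3.97%) and 7332 lost regions (8.61%) reached it. Lists cut to the length of the shortest gave 7738 gained and 7612 lost regions, which lists of 1 length draw together by construction. Peaks of −log10 q of at least 20 gave 3394 gained and 10523 lost regions. So which group held more regions of its own depends on the scaling, and levels of single regions are given below by background, with the bound under both scalings where only 1 of them passes 2-fold or 1-fold.

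**Figure D1:**
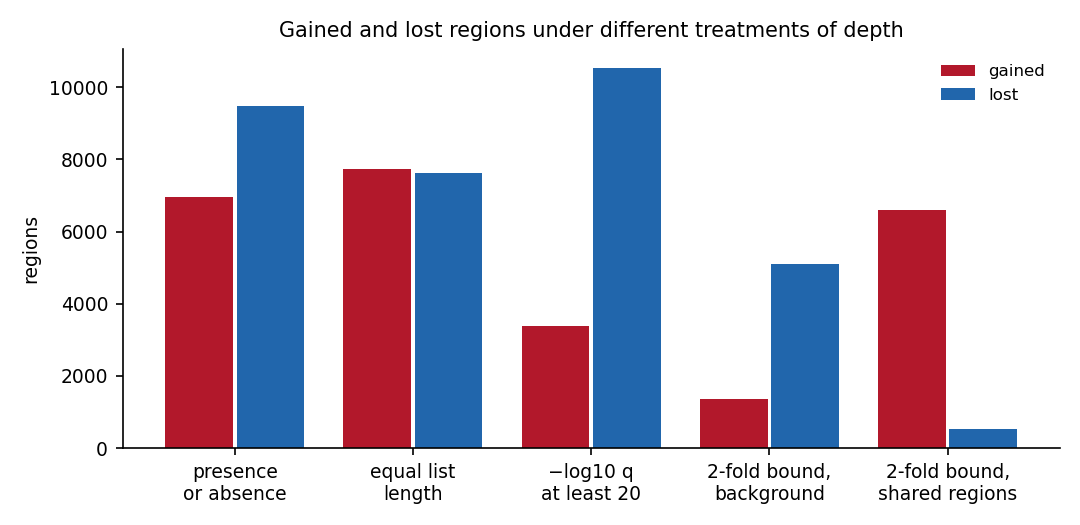
Numbers of regions (vertical axis) with a peak in both JUN-KD and no Pro library (gained, red) and in no JUN-KD and both Pro libraries (lost, blue), for 5 treatments of depth. Lost regions outnumber gained ones by presence or absence (6943 gained, 9491 lost), and the order is the reverse when a 2-fold bound is scaled on shared regions (6585 gained, 527 lost).

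The open regions that separated JUN-depleted senescent from proliferating cells were in part regions of ordinary senescent cells. Of the 6943 gained regions, 3037 (43.7%, 95% Wilson interval 42.6 to 44.9) had a peak in all 4 Sen libraries, 1854 (26.7%) in 1 to 3 of them, and 2052 (29.6%, 28.5 to 30.6) in none. Of the 9491 lost regions, 5773 (60.8%, 59.8 to 61.8) had a peak in all 4 Sen libraries and 1260 (13.3%, 12.6 to 14.0) in none. A lost region with peaks in Sen is one that senescent cells kept open and JUN-depleted senescent cells did not hold, and a lost region without any was not listed in Sen or in JUN-KD, although 318 of the 1260 had a peak in both siFOXF1/2 libraries and 165 in 1 of them. Among shared regions 92.9% had a peak in all 4 Sen libraries. The intervals cover counting error over regions only, and the Sen lists were longer, with 96512 to 100656 peaks. With all lists cut to the length of the shortest of the 4, the shares in all 4 Sen libraries were 24.6% of gained and 26.9% of lost regions, so the gap between the classes depends on list length.

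**Figure D2:**
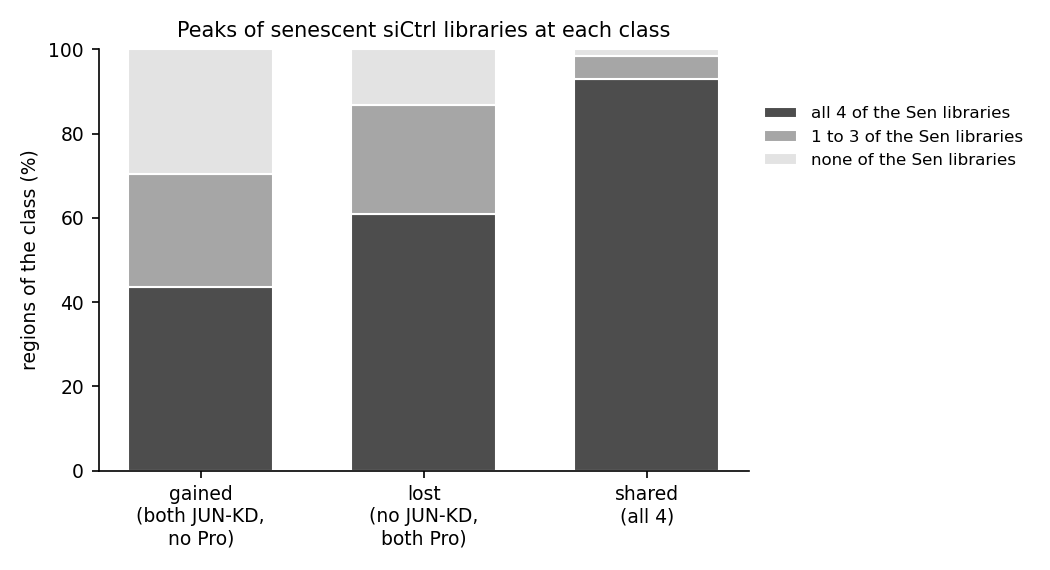
Share of gained, lost and shared regions (vertical axis, percent of the class) that had a peak in all 4, in 1 to 3 or in none of the Sen libraries. The part without any Sen peak is 29.6% of gained, 13.3% of lost and 1.57% of shared regions.

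The prefix style moved with the gained class. Sen 3 and 4, which share the style of JUN-KD, held 63.2% and 64.5% of the gained regions, and Sen 1 and 2, which share that of Pro, 53.1% and 49.3%. Both Sen 3 and 4 and neither Sen 1 nor 2 held 534 gained regions (7.69%), while 30 (0.432%) showed the reverse. For lost regions these numbers were 154 (1.62%) and 306 (3.22%). Of the gained regions, 3174 (45.7%) had a peak in both Sen 1 and Sen 2, so these regions also separate senescent from proliferating libraries within the style of Pro. Of the lost regions, 6374 (67.2%) had a peak in both Sen 3 and 4, the senescent libraries that share the style of JUN-KD. The part of the style in the other regions was not tested.

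Stronger regions were more often regions of Sen. In 5 equal bins of the gained regions ordered by the lower −log10 q of the 2 JUN-KD peaks, the share in all 4 Sen libraries was 37.0%, 41%, 43.2%, 46.0% and 51.4% from the weakest to the strongest. The share in no Sen library was 37.7% in the weakest and 19.1% in the strongest bin. In lost regions, ordered by the Pro peaks, the share in all 4 Sen libraries was 49.6% in the weakest and 73.7% in the strongest bin. Gained regions were narrow, with a median width of 262 bp, beside 327 bp for lost and 567 bp for shared regions. Their median distance to the nearest shared region was 13.2 kb, and 13.3 kb for lost regions. At gained regions with a peak in all 4 Sen libraries, the median level was 13.3 and 15.9 in JUN-KD and 24.5 to 27.6 in Sen. These JUN-KD levels were therefore lower than those of Sen without the knockdown, as at shared regions.

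**Figure D3:**
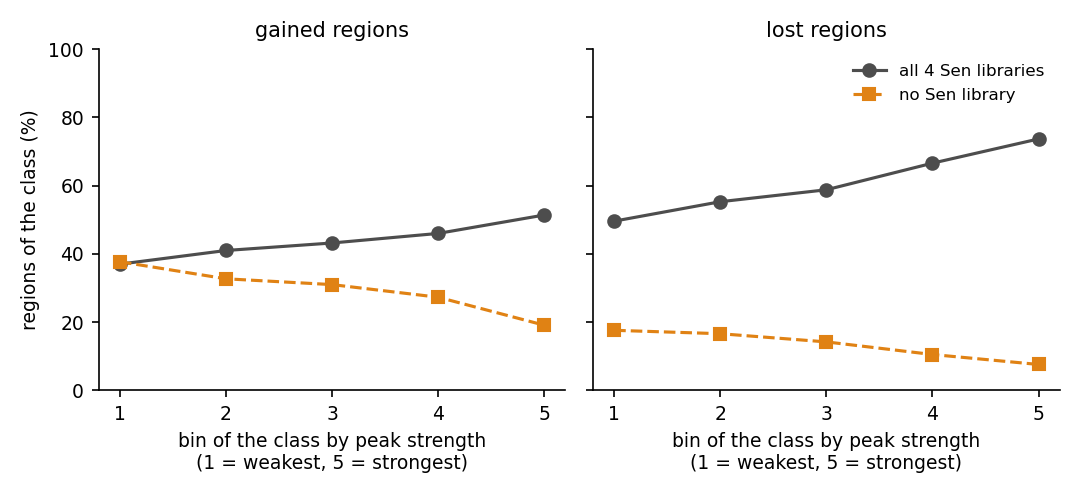
Share of gained (left) and lost (right) regions with a peak in all 4 Sen libraries (circles) or in no Sen library (squares), in 5 equal bins of the class ordered by peak strength from weakest to strongest. The share in all 4 Sen libraries runs between 37.0% and 51.4% for gained and between 49.6% and 73.7% for lost regions.

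Seen from the senescent side, few of the regions listed in Sen and not in Pro were also listed in both JUN-KD libraries. Over regions merged from all 10 paired-end lists, 19521 had a peak in all 4 Sen and in neither Pro library. Both JUN-KD libraries held a peak at 2875 of them (14.7%, 95% Wilson interval 14.2 to 15.2), 1 of the 2 at 2244 (11.5%) and neither at 14402 (73.8%). Of 48397 regions in all 4 Sen and both Pro libraries, both JUN-KD libraries held 38089 (78.7%). The share held by both JUN-KD libraries grew with the strength of the Sen peaks, with 7.27% in the weakest and 31.4% in the strongest of 5 equal bins of the Sen-only regions. In bins of the regions in common with Pro it was 46.7% in the weakest and 99.5% in the strongest. The bins of the 2 sets are not of equal strength. The Sen lists were also longer, with 96512 to 100656 peaks against 61426 and 58955 in JUN-KD and 63860 and 64904 in Pro. These shares were not computed at equal list length, and the part of list length in them was not tested. The Sen-only regions that both JUN-KD libraries kept had median levels of 24.2 to 27.2 in Sen, and those that neither kept 15.0 to 21.2.

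The 5 strongest gained regions with peaks in all 4 Sen libraries, ranked by the lower −log10 q of the JUN-KD peaks, stood between 32.5 and 64.1 times the background in JUN-KD. The first was chr10:89804848-89805663, with a level of 56.5 and 64.1 in JUN-KD, 41.3, 22.4, 36.3 and 37.4 in Sen and no peak in Pro. Its lower bound was 3.94-fold by background and 7.79-fold on shared regions. The second was chr6:151462874-151463174, with 46.4 and 49.2 in JUN-KD and 17.2 to 21.9 in Sen. Both JUN-KD libraries lay above all Sen libraries at these 2 regions. The third, at chr11:3199328-3200007, showed the same order, with 41.9 and 47.7 in JUN-KD and 16.8 to 23.8 in Sen. The other two had overlapping levels in JUN-KD and Sen. The region chr2:196278122-196278630 stood at 32.5 and 46.7 in JUN-KD and 37.6 to 53.0 in Sen, and chr18:56663013-56663649 at 54.5 and 61.7 in JUN-KD and 48.8 to 62.3 in Sen. Both siFOXF1/2 libraries held a peak at 4 of these 5 regions and 1 of the 2 at the region on chromosome 6.

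Gained regions without any Sen peak were seen in the JUN-KD libraries but not in senescent cells as such. Their strongest was chr1:80883371-80883688, at 29.9 and 37.3 times the background and with a bound of 4.34-fold. The next, chr6:97625872-97626091, stood at 27.9 and 32.8 with a bound of 3.74-fold. On chromosome 3 at 122116122 to 122116418 the level was 28.9 and 35.3 in JUN-KD, and both siFOXF1/2 libraries had a peak there as well, at 29.1 and 44.1. Of the 2052 gained regions without a Sen peak, 1626 (79.2%) had no siFOXF1/2 peak either and 223 (10.9%) had one in both libraries.

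Lost regions were described separately for those with a peak in all 4 Sen libraries and those with none, so the Sen peaks of the first kind were a condition of their choice. At the strongest of the first kind, chr1:155618385-155618775, neither JUN-KD library held a peak, Sen stood at 46.8 to 52.4 and Pro at 57.4 and 52.1. Its bound was 5.82-fold by background and 3.35-fold on shared regions. The second, at chr6:160137628-160138222, had no peak in JUN-KD and stood at 62.5 to 83.6 in Sen and 55.1 and 61.7 in Pro, and the third, at chr12:123436813-123437273, at 42.9 to 49.1 in Sen and 54.5 and 54.6 in Pro. Both had bounds of more than 2-fold under either scaling, 5.83 and 3.35 for the second and 6.09 and 3.34 for the third. Both siFOXF1/2 libraries kept a peak at each of these 3 regions. The strongest lost region without any Sen peak, at chr11:8730589-8731138, had no peak in JUN-KD and stood at 61.4 and 63.7 in Pro, with a bound of 5.15-fold. Both siFOXF1/2 libraries listed it at 8.80 and 8.31, near the detection floor.

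At shared regions the largest differences in either direction were larger than the general shift. The level was highest relative to Pro at chr5:83289469-83289991, with 41.2 and 41.8 in JUN-KD, 25.5 to 30.8 in Sen and 7.46 and 9.61 in Pro. This is a difference of 2.29 on the log2 scale, or 3.3 relative to the median of shared regions. It was lowest at chr11:10408711-10409407, with 6.17 and 9.95 in JUN-KD, 16.0 to 37.2 in Sen and 60.8 and 74.8 in Pro. The log2 difference was -3.11 there, or -2.10 relative to the median. At both places the Sen libraries lay between JUN-KD and Pro without overlap.

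Gene neighbourhoods were described with 12 groups of genes, counting regions within 50 kb of the gene starts, each once per group. As background, 8.15% of all regions were gained and 11.1% lost. The labelled cell type was checked first. Of 16 extracellular matrix and contractile genes of fibroblasts, 15 had a shared peak within 2 kb of the start. Of 11 genes of other cell types (such as PTPRC of leukocytes, EPCAM of epithelium and CDH5 of endothelium) 0 had a shared peak there and 2, EPCAM and TNNT2, had a peak in some of the 4 libraries. Regions within 50 kb of these 11 genes were gained in 8.33% and lost in 15.0% of 60 cases, so the lost share of these genes, which mark other cells, was as far above the background as that of the matrix genes below.

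SASP genes were found on both sides. Within 50 kb of 17 chemokine and cytokine genes, 11 of 97 regions were gained (11.3%, 95% Wilson interval 6.45 to 19.2) and 13 lost (13.4%, 8.00 to 21.6), so both shares included the background in their intervals. Of the gained regions 5 had a peak in all 4 Sen libraries, and of the lost ones 8. CXCL8, which encodes the neutrophil chemokine IL-8, and LIF, a cytokine of the IL-6 family, had 3 gained regions each, the most of the group. Near CXCL8 the gained region at chr4:74600343-74600721 stood at 15.6 and 16.4 in JUN-KD and 24.5 to 28.8 in Sen, with no peak in Pro. Its bound was 1.81-fold by background and 3.32-fold on shared regions, so a 2-fold difference is bounded under 1 of the 2 scalings. The other 2 gained regions near CXCL8 had no Sen peak. LIF also had the most lost regions, 4. One of these lay at its start, at chr22:30641857-30642806, with no peak in JUN-KD and 29.8 and 22.2 in Pro. The level there was 34.4 and 36.8 in Sen 1 and 2, and 22.9 and 21.4 in Sen 3 and 4. Its bound was 1.66-fold by background and 0.913 on shared regions, so that no difference is bounded once libraries are scaled on shared regions.

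Further SASP genes were looked up after their values were seen. The start of CXCL5, another neutrophil chemokine, was lost. The region at chr4:74864019-74864672 had no peak in JUN-KD, 9.81 to 22 in Sen and 9.76 and 9.61 in Pro. These Pro levels lie close to the detection floor and the bound was 1.61-fold by background and 0.928 on shared regions, so no difference is bounded under the second scaling. At the start of CXCL8 itself the region at chr4:74606156-74606484 was shared, at 20.5 and 24.9 in JUN-KD, 72.3 to 82.0 in Sen and 29.3 and 25.3 in Pro. All 4 Sen libraries thus stood above both Pro libraries, and both JUN-KD libraries below them. The log2 difference between JUN-KD and Pro was -0.27, which is 0.73 above the median of shared regions. CXCL1 showed the same order by background at its start, with 8.44 and 7.96 in JUN-KD, 23.8 to 29.2 in Sen and 10.9 and 10.6 in Pro. Its log2 difference between JUN-KD and Pro was -0.39, which is 0.61 above the median of shared regions. JUN-KD is thus below Pro at these 2 starts by background only. For IL6 the order was another, 26.3 and 31.8 in JUN-KD, 43.3 to 51.2 in Sen and 70.6 and 69.3 in Pro. A gained region near IL6, at chr7:22802493-22802831, stood at 25 and 22.9 in JUN-KD with a bound of 3.32-fold, and Sen 3 listed it at 6.21.

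**Figure D4:**
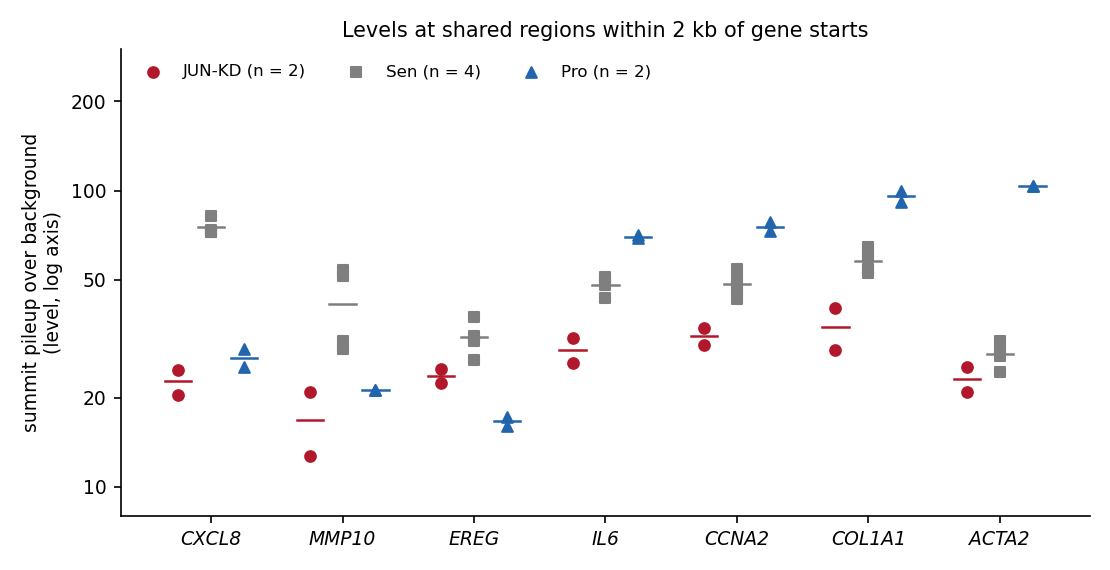
Summit pileup over background (vertical log axis) at shared regions within 2 kb of the starts of 7 genes, picked after their values were seen, with a point per library, a bar for the mean and JUN-KD, Sen and Pro from left to right for each gene. At CXCL8 the Sen libraries lie between 72.3 and 82.0, above JUN-KD (20.5 and 24.9) and Pro (29.3 and 25.3), and at ACTA2 Pro (104 in both) lies above JUN-KD (25.3 and 20.9) and Sen.

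Sequences of 300 bases, from 250 before to 50 after the start, were taken from RefSeq on GRCh38.p14, another build than that of the peaks, for 3 genes of the SASP and protease groups, to show promoters with and without the AP-1 letters. They are written 5′ to 3′ in the direction of the gene, with matches to TGANTCA in capitals. The motif is its own reverse complement, so that a single search covers both strands.
CXCL8: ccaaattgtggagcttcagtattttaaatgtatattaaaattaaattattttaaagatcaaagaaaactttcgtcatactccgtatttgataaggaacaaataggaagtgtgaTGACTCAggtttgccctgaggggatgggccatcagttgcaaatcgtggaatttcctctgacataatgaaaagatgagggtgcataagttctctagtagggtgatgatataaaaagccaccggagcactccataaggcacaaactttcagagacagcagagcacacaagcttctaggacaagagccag
MMP10: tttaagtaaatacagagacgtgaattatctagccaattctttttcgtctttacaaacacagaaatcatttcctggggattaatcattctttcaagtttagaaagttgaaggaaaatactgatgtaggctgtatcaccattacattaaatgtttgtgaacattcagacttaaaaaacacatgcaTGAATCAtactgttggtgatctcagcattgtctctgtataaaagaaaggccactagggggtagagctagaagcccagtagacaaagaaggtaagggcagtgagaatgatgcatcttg
CXCL5: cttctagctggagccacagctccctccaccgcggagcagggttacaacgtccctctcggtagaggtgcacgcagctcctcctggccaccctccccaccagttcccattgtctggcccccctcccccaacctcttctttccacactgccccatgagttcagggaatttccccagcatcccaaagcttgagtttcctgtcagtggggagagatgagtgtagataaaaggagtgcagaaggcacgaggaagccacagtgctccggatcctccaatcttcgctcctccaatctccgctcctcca
CXCL8 holds TGACTCA 137 bases before its start and MMP10 TGAATCA 67 bases before. CXCL5 holds no such letters in this window. Nor do most genes of these groups with a shared region at the start, since 3 of 10 with a promoter in RefSeq hold the motif. The motif was present in 7.71% of all 35116 RefSeq promoters, and in 10 of the 90 listed genes with a promoter among them (11.1%). A gene counted if any of its promoters held the motif, so shares of genes and of promoters are not like for like.

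Matrix proteases and the plasminogen system had similar numbers of gained and lost regions. Within 50 kb of 10 genes, 5 of 71 regions were gained (7.04%, interval 3.05 to 15.4) and 4 lost (5.63%, 2.21 to 13.6). All 4 lost regions had a peak in all 4 Sen libraries, and 3 of the 5 gained ones did. PLAU, the urokinase that activates plasminogen, had the most gained regions with 2. The stronger, at chr10:75713538-75713803, stood at 18.2 and 17.9 in JUN-KD and 34 to 47.2 in Sen, with no peak in Pro. Its bound was 1.83-fold by background and 3.20-fold on shared regions. MMP3, the protease stromelysin 1, had the most lost regions with 2, which it shares with its neighbour MMP12. The region at chr11:102722178-102722379 had no peak in JUN-KD, 30.1 to 39.2 in Sen and 10.3 and 12.6 in Pro. That region was stronger in all 4 Sen than in both Pro libraries, and its bound was 1.73-fold by background and 0.994 on shared regions. At the MMP3 start, at chr11:102714308-102714539, JUN-KD stood at 7.79 and 8.95, all 4 Sen libraries at 44.2 to 63.6 and Pro 2 at 8.59, with no peak in Pro 1. At the start of MMP10, stromelysin 2, JUN-KD stood at 12.7 and 20.9 and Pro at 21.2 in both libraries. The log2 difference was -0.39, which is 0.62 above the median of shared regions. Sen 1 and 2 stood there at 51.7 and 54.0, and Sen 3 and 4 at 29.1 and 31.2.

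AP-1 subunits themselves had peaks at every start. All 9 genes had a shared peak within 2 kb, and 4 of 113 regions within 50 kb were gained (3.54%) and 9 lost (7.96%). JUN, one of the knockdown targets, had 1 gained region, at chr1:59275016-59275324, at 33.1 and 36.3 in JUN-KD, 33.8 to 45.2 in Sen and no peak in Pro. The region was thus listed in both JUN-KD and all 4 paired-end Sen libraries. Its bound was 3.21-fold by background and 6.12-fold on shared regions. JUND had 3 lost regions, the most of the group. The first, at chr19:18390418-18390637, had no peak in JUN-KD, 40.6, 48.1 and 44.4 in 3 of 4 Sen libraries and 84.9 and 83.9 in Pro, with a bound of 2.45-fold by background and 1.29-fold on shared regions. siRNA acts on transcripts, so peaks at the targeted genes do not measure the knockdown. Near 4 NF-kB genes 0 of 27 regions were gained and 4 were lost (14.8%). RELA, the p65 subunit, had 2 of the lost regions. The stronger, at chr11:65410682-65410912, had no peak in JUN-KD, 23.2 to 30.3 in Sen and 27.0 and 32.9 in Pro, with a bound of 1.94-fold by background and 1.10-fold on shared regions.

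Genes of Ras signalling, the pathway that 4-OHT switches on in these cells, had more gained than lost regions. Within 50 kb of 13 ERK feedback and ligand genes, 10 of 92 regions were gained (10.9%, interval 6.01 to 18.9) and 4 lost (4.35%, 1.70 to 10.7). The interval of the gained share includes the background of 8.15%, and that of the lost share lies below the background of 11.1%. These intervals cover counting error over regions only, and the difference between the shares was not tested. Of the 10 gained regions, 6 had a peak in all 4 Sen libraries. At shared regions near these genes the median difference was 0.28 above that of all shared regions on the log2 scale, the highest of the 12 groups, and near NF-kB genes it was -0.45, the lowest. DUSP5, a phosphatase of nuclear ERK, had 3 gained regions. The region at chr10:112285688-112285941 stood at 26.3 and 35.8 in JUN-KD and 33.5 to 44.5 in Sen, with no peak in Pro. Its bound was 1.64-fold by background and 3.43-fold on shared regions. Near SPRED2, an inhibitor of Ras signalling, the region at chr2:65685832-65686495 stood at 20.1 and 31.3 in JUN-KD and 41.7 to 51.0 in Sen, again with no peak in Pro, and its bound was 2.06-fold by background and 4.32-fold on shared regions. At the start of EREG, the EGF receptor ligand epiregulin, the shared region at chr4:75230349-75231215 stood at 25 and 22.4 in JUN-KD, 26.8 to 37.5 in Sen and 16.1 and 17.2 in Pro. Both JUN-KD libraries lay above both Pro libraries there by 0.51 on the log2 scale, or 1.51 relative to the median of shared regions. SPRED2 and EREG were looked up after their values were seen.

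Extracellular matrix and contractile genes had more lost than gained regions. Within 50 kb of 16 genes, 8 of 174 regions were gained (4.60%, interval 2.35 to 8.81) and 24 lost (13.8%, 9.45 to 19.7). Both intervals include the background. Of the 24 lost regions, 9 had no Sen peak and 4 had one in all 4 Sen libraries. COL1A1, which encodes the main chain of type I collagen, had 5 lost regions, with no peak in JUN-KD and levels of 65.7 to 95.5 in Pro. The region at chr17:48267872-48269008 had no peak in JUN-KD or in any Sen library and stood at 84.9 and 92.0 in Pro. The local background around these peaks was high, and the bound was 1.18-fold by background and 0.606 on shared regions, so absence from the list does not bound a difference here. At the COL1A1 start a shared region stood at 28.9 and 40.3 in JUN-KD and 91.3 and 100 in Pro. Its log2 difference was -1.49, or -0.48 relative to the median of shared regions. The Sen libraries stood between the groups, at 52.6 to 64.4. Sen 1 to 3 carried the same levels at a second shared region of that start. COL1A2, the second chain of type I collagen, had 4 lost regions, all without a Sen peak. Together with SPARC it had the most gained regions of this group, 2 each. The lost region with the highest level, at chr7:94021263-94021615, had no peak in JUN-KD and stood at 33.3 and 42.0 in Pro. Its bound was 1.34-fold by background and 0.731 on shared regions, and the bounds of all 4 were 1.02 to 1.92 by background and 0.563 to 1.10 on shared regions. At the start of ACTA2, the smooth muscle actin of myofibroblasts, the shared region at chr10:90711187-90711854 stood at 25.3 and 20.9 in JUN-KD, 24.5 to 31.2 in Sen and 104 in both Pro libraries. Its log2 difference was -2.17, or -1.17 relative to the median. A second region at that start, at chr10:90712419-90712928, stood at 51.0 and 44.3 in JUN-KD, 14.4 to 25.5 in Sen and 91.3 and 78.9 in Pro. By background, JUN-KD thus lay between Sen and Pro at that place. The log2 difference between JUN-KD and Pro was -0.84 there, which is 0.17 above the median of shared regions. ACTA2 was looked up after its values were seen.

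Cell cycle genes kept open starts. All 21 genes had a shared peak within 2 kb, and 7 of 136 regions within 50 kb were gained (5.15%) and 14 lost (10.3%). At the start of CCNA2, the S-phase and mitotic cyclin A2, the level was 30.2 and 34.3 in JUN-KD, 43.2 to 54.3 in Sen and 72.9 and 78.4 in Pro. The log2 difference of -1.23 lies 0.23 below the median of shared regions. The median over shared regions near these genes was also close to it, at -0.24 relative to all shared regions. CDC6, a licensing factor of DNA replication, had the most lost regions of the group with 3, and MCM2, a subunit of the replicative helicase, had 2 gained ones. Within 50 kb of 6 CDK inhibitor genes, 1 of 40 regions was gained (2.50%, interval 0.443 to 12.9) and 4 lost (10.0%, 3.96 to 23.1). Both intervals include the background. The gained region lay near CDKN1A, which encodes p21, at chr6:36695507-36695761, at 26.3 and 23.4 in JUN-KD and 43.7 to 49.5 in Sen. CDKN1C, which encodes p57, had 3 of the 4 lost regions.

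Among the transcription factors of lung mesenchyme 3 of 78 regions were gained (3.85%) and 8 lost (10.3%). The lost share was 4.23% when the lists were cut to equal length. FOXF2, a forkhead factor of mesenchymal cells, had 2 lost regions at its start. The one at chr6:1390443-1391329 had no peak in JUN-KD and stood at 19.5 and 23.8 in Pro. Its level was 30.7 and 38.0 in Sen 1 and 2, and 15.0 and 16.0 in Sen 3 and 4. Sen 2 carried the same 38.0 at the other lost region of that start, so this value may not be particular to either. Its bound was 1.31-fold by background and 0.718 on shared regions. FOXF2 also had 1 of the gained regions, without a Sen peak. IGF-binding proteins, secreted carriers of insulin-like growth factors of which several belong to the SASP, had 9 gained and 9 lost of 62 regions (14.5% each, interval 7.83 to 25.3). IGFBP7 had 4 gained regions, the most of any listed gene. The strongest by level, at chr4:57927666-57927901, stood at 31.2 and 45.2 in JUN-KD, 28.8 to 39.3 in Sen and no peak in Pro. Its bound was 1.87-fold by background and 3.92-fold on shared regions. IGFBP5 had 4 lost regions. At its start the region at chr2:217557654-217558132 had no peak in JUN-KD, stood at 24.5 and 23.9 in 2 of 4 Sen libraries and at 49.9 and 48.0 in Pro, with a bound of 2.25-fold by background and 1.25-fold on shared regions. Near HMGA1 and HMGA2, chromatin proteins of senescent cells, 11 of 12 regions were shared and 0 were gained or lost.

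**Figure D5:**
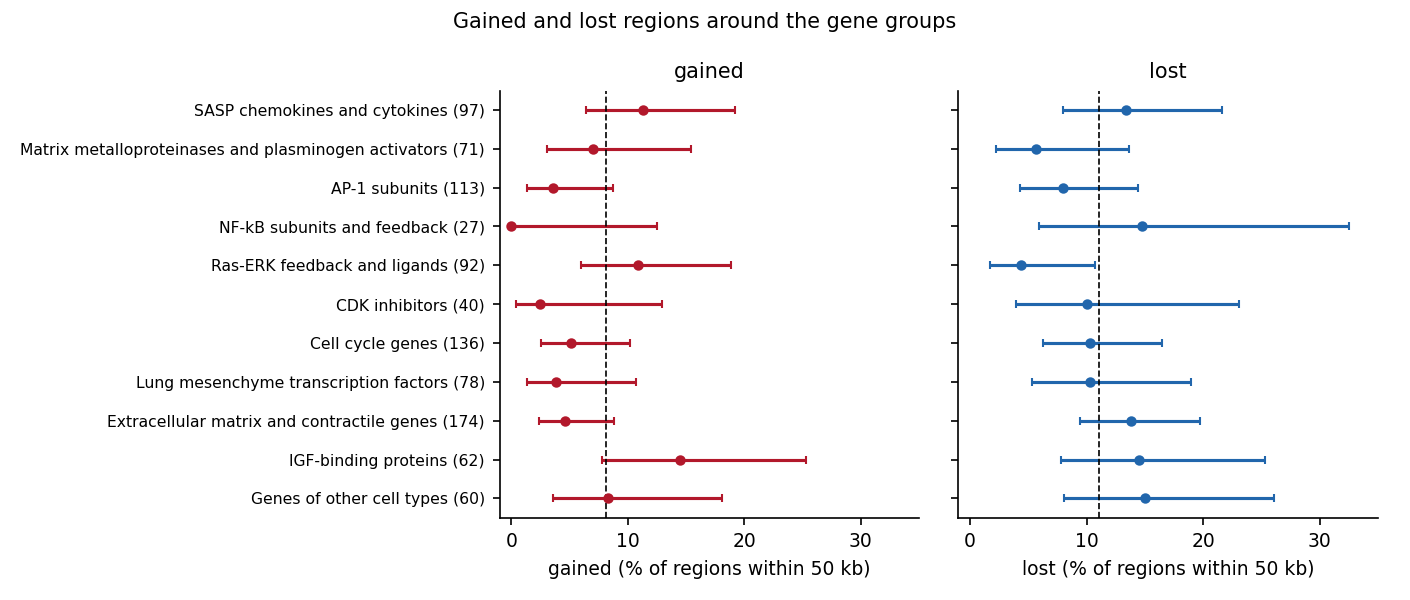
Share of regions within 50 kb of the genes of each group that were gained (left) or lost (right), with 95% Wilson intervals, the number of regions in brackets and the share over all regions as a dashed line (8.15% gained, 11.1% lost). All intervals but that of lost regions at Ras-ERK genes include the line, and HMGA genes (12 regions) are not drawn.

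Gained and lost regions were also counted in windows of 1 Mb. The windows of 1 Mb with the most gained regions were chromosome 5 from 73000001 to 74000000 with 19 gained of 74 regions, chromosome 7 from 41000001 to 42000000 with 16 of 69, and chromosome 2 from 218000001 to 219000000 with 15 of 83. The median over windows with any was 3. In the window on chromosome 7, 12 of the 16 gained regions had a peak in all 4 Sen libraries. This window holds INHBA, a subunit of the TGF-beta family ligand activin A, but only 1 of 13 regions within 50 kb of INHBA was gained. The windows with the most lost regions were chromosome 17 from 48000001 to 49000000 with 21 lost of 103, chromosome 15 from 67000001 to 68000000 with 19 of 80, and chromosome 6 from 1000001 to 2000000 with 18 of 65, where the median was 4. The first of these windows holds COL1A1, and the last FOXF2. In the first and the last window, 12 lost regions each had a peak in all 4 Sen libraries. Within 50 kb of the genes themselves, COL1A1 had 5 lost regions, 0 of them in all 4 Sen libraries, and FOXF2 had 2, of which 1 was.

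Other knockdowns lacked peaks at the same regions to different extents. These libraries did not define the regions, but the siFOXF1/2 libraries share the peak-name style of Pro, in which gained regions had to lack a peak. The part of that style in the siFOXF1/2 shares was not tested. Of the 3037 gained regions with a peak in all 4 Sen libraries, 439 (14.5%, interval 13.2 to 15.8) had no peak in either siFOXF1/2 library. The share was 6.72% (6.10 to 7.4) of lost and 0.823% (0.737 to 0.918) of shared regions. Shared regions are stronger, and at the Sen strength of the gained regions the share was 5.53% of lost and 2.37% of shared regions. Knockdown of the coactivators p300 and CBP (Sen-sip300/CBP, n = 2) and of the NF-kB subunit p65 (Sen-sip65, n = 2) was read in single-end libraries against 2 single-end Sen libraries. Of 1325 gained regions held by both single-end and all 4 paired-end Sen libraries, 26% (23.7 to 28.4) had no peak in either sip300/CBP library. At the same strength, taken from the paired-end Sen peaks, the share was 27.7% of lost and 15.4% of shared regions chosen in the same way. For sip65 the shares were 31.8% (29.4 to 34.4) of gained, 45.9% of lost and 26.4% of shared regions. The sip65 libraries differed, since 34.3% of the gained regions lacked a peak in replicate 1 and 72.2% in replicate 2. This was not particular to gained regions, with 52.5% and 87.8% of lost and 13.0% and 49.8% of shared regions. The sip300/CBP libraries also differed, with 29.4% and 42.0% of gained, 33.9% and 48.7% of lost and 10.9% and 20.2% of shared regions.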

How the data were processed

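The members and gene lists were chosen with earlier results of these data known. ATAC-seq libraries were made from transfected cells (Active Motif kit, Illumina NextSeq), and the libraries compared have paired-end reads of 35 bp, per the labels' protocols. The submitters' processing notes name Bowtie2 2.3.4.1, SAMtools 1.9, deepTools 3.1.1, MACS2 2.1.1 and the build hg19. The authors deposited a peak list per library with the fold enrichment of the summit as a ratio to local background. The authors' lists also give −log10 p and −log10 q per peak, as deposited. The deposited integer score was not used. Raw read depth is not given in the sources used here.

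Peaks of the 4 lists were merged where they overlapped by at least 1 bp, on chromosomes 1 to 22. The fold and −log10 p of each peak were solved for a whole summit pileup and its local background, within a tolerance of 0.002 in −log10 p that widened in proportion above 10. The genome-wide background is the 1st percentile of the local background, and a level is the pileup over it. Where a peak overlapped several regions, its level could be given to each of them. The lower bound of a fold divides the lowest level among libraries with a peak by the highest detection floor among those without, at the local background of the region. A Wilson interval (95%) covers counting error over regions only. The single test is a two-sided exact permutation test over libraries.

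Starts of 126 genes were placed on hg19 from general knowledge to the nearest kb, because the gene table used here is on another build. All 126 symbols and chromosomes and 37 of 37 spacings between neighbours matched that table (GRCh38.p14). Regions were named as the 5 strongest per class, and the gene with the most gained and the one with the most lost regions per group were named, with others looked up later marked in the text. The scripts ran under Python 3.11.15, numpy 2.4.6, scipy 1.17.1, pandas 2.3.3 and matplotlib 3.10.9, and were tested on simulated data. Alternatives were a stricter q, equal list lengths, other overlaps and windows, both scalings and leaving out each library. AP-1 letters were not searched in the regions, since no hg19 sequence was used here. One other gene was left out of the lists and is not reported here.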

Additional observations from a re-analysis of the deposited data

Results flagged for a closer look

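Of 219 regions compared across the 4 Sen libraries, 8 had 1 library apart from the other three by Dixon's criterion, and chance alone marks about 1 in 20. Sen 3 stood low at the lost region chr1:155618385-155618775, with a level of 46.8. Sen 2 stood high at the lost region chr6:160137628-160138222 with 83.6 and at the CXCL8 start with 82.0. Sen 2 stood low at PLAU with 57.6. Sen 1 stood high at JUN with 120 and at SPRY4 with 70.3. Sen 4 stood low at DUSP6 with 46.8, and Sen 3 high at LOX with 53.3. At that DUSP6 region Sen 1 to 3 carried the same levels as at the neighbouring region of the start (97.5, 100 and 107). Sen 4 stood at 92.7 at that neighbour. The part of peak division in the low value was not tested.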

How the results depend on the processing

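Gained, lost and shared counts under stricter or scaled rules moved as follows. Peaks of −log10 q of at least 20 left 3394 gained regions. A 2-fold bound by background left 1350 gained and 5093 lost regions, and one on shared regions 527 lost. With the floor at the genome-wide background, an alternative chosen after seeing the data, 3384 gained regions remained past it. The share of gained and of lost regions with a peak in all Sen libraries was 49.5% and 66.4% at the stricter q, and 24.6% and 26.9% at equal list length. It was 40.3% and 57.6% in windows of 500 bp, and 47.3% and 66.8% past the bound by background. With Sen 1 and 2 only it was 45.7% and 71.2%, and with Sen 3 and 4 only 59.1% and 67.2%. Where a Sen peak counted only with its summit inside the region (also chosen after seeing the data) it was 39.9% and 57.1%, and where peaks had to cover 50% of the region 58.4% of lost regions. The lost share near lung mesenchyme factors was 4.23% at equal list length. Leaving out 1 library gave 8477 to 11603 gained regions (the highest without JUN-KD 2) and 12220 to 14940 lost ones (the highest without Pro 1). The shares in all Sen libraries were then 36.9% to 48.5% of gained and 53.6% to 65.7% of lost regions. The cause of these moves was not tested, except that fewer lists must hold a peak when 1 is left out. Taken as paired in a replicate block, JUN-KD minus Pro was -4192 peaks and -5.76 Mb (exact sign-flip p = 0.5, the smallest possible). The numbers did not pair the samples, since deviations of same-numbered libraries had r = 0.0345 over 41229 shared regions. The planned AP-1 motif search in the regions was not run. With 2 libraries a group and no counts, absence of a peak bounds a level and does not show closed chromatin.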

Other observations

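The shares differed by chromosome. Gained regions made up 5.16% of regions on chromosome 19 and 9.85% on chromosome 13, the lowest and highest of the 22. Lost regions made up 9.21% on chromosome 19 and 13.1% on chromosome 22. At the lost regions without any Sen peak, 777 of 1260 (61.7%) had no peak in either siFOXF1/2 library and 318 (25.2%) had one in both.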
